A study of Rattus norvegicus with 4 samples.

Results

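The hormone circuit described here is the inhibin, activin, follistatin and FSH axis of the testis, taken as 9 named genes (Inha, Inhba, Inhbb, Fst, Fshr, Amh, Acvr1, Acvr2a and Acvr2b). All 9 were on the array, read by 14 probe sets that carry 1 gene symbol each, out of 4736 genes and 7006 such probe sets in the table. Inha, Fst, Fshr, Acvr2a and Acvr2b had 2 probe sets each, and the other 4 genes had 1.

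The samples were whole rat testis on Affymetrix arrays, 1 deposited sample for each of 4 groups. Rats went onto a diet lacking vitamin A at 20 days of age and stayed on it for 9 weeks. The groups are testis of deficient animals without retinol (VAD, 0 h) and testis of equally deficient animals 4, 8 and 24 h after retinol, the alcohol form of the vitamin. All groups share the deficient diet, and none comes from vitamin A-sufficient rats. No strain, dose or number of animals is given in the sources used here. Whether a sample stands for 1 chip or a pool is likewise not given.

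Inhibin and activin are dimers built from shared subunits. The product of Inha joins a beta subunit, from Inhba or Inhbb, to make inhibin, while beta subunits alone pair into activin. Follistatin, from Fst, binds activin and keeps it from its receptors, and activin signals through type II receptors (Acvr2a, Acvr2b) that recruit type I receptors. In the testis the Sertoli cells carry the FSH receptor, make inhibin in response to FSH and make anti-Müllerian hormone (Amh), and the inhibin released to the blood lowers FSH secretion by the pituitary.

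The deposited values are linear ratios per probe set whose denominator is not stated. A ratio gives no level, so the abundance of one gene cannot be set against that of another, and the labelled tissue cannot be checked by whether its marker genes were present. Changes are log2 differences between 2 arrays, and 2-fold is a difference of 1. With 1 array per group no test exists and no p-value is given. In place of a replicate error, the error of 1 probe set was taken from 1083 genes with probe sets from 2 or more database sequences. For each gene the first 2 such probe sets by name were used. The error is the root mean square of the disagreement within such pairs divided by the square root of 2. Its size against VAD was 0.43 (4 h), 0.52 (8 h) and 0.57 (24 h), with 0.33 between 8 h and 4 h, and 0.32 between 24 h and 8 h. It does not contain the spread between animals. Across these genes the changes of the 2 probe sets correlated only weakly. Against VAD r was 0.14 (4 h), 0.15 (8 h) and 0.12 (24 h), with 0.11 and 0.16 in the 2 later steps. Over all 7006 probe sets, 29.8%, 30.2% and 28% differed from VAD by more than the error at 4, 8 and 24 h.

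Facts of the whole table bear on every sign below. Across the 7006 probe sets the median change against VAD was -0.09, -0.11 and -0.11 at the 3 times in order. The 9 bacterial and phage spike-in probe sets (BioB, BioC, BioDn and CreX), whose RNA is added in fixed amounts, were all lower on each retinol array than on the VAD array. Scaling the arrays on them would add 0.55, 0.50 and 0.62 to every change at 4, 8 and 24 h. The 5' probe sets of the actin, GAPDH and hexokinase control transcripts exceeded their 3' probe sets in change by means of 0.71, 1.09 and 1.01. In whole tissue, fewer cells of a type and less RNA per cell cannot be told apart.

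Sequence upstream of 5 of the genes is shown first. Inha, Inhba, Amh and Acvr2a were picked after their lower values at 24 h than at 8 h had been seen. Fshr was picked as the member furthest above VAD at 4 h. Which genes fall in the group of 4 depends on the threshold and the scaling, as given below, and the group is a description. Each line holds the 250 bases before the gene's start as RefSeq places it in rat assembly GRCr8, read 5' to 3' on the gene's strand. Capitals mark TGACG, the core of a cyclic AMP response element, AGGTCA, a core motif of nuclear receptors, and CACGTG, an E box, on either strand. The windows are chr9:84442859-84443108 (plus strand) for Inha, chr17:53804509-53804758 (minus strand) for Inhba, chr7:9559868-9560117 (minus strand) for Amh, chr3:53614536-53614785 (plus strand) for Acvr2a and chr6:10952079-10952328 (plus strand) for Fshr.
Inha: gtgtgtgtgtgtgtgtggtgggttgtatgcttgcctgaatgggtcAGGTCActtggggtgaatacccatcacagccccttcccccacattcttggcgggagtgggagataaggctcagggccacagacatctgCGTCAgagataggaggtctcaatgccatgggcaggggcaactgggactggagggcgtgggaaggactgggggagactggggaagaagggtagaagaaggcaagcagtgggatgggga
Inhba: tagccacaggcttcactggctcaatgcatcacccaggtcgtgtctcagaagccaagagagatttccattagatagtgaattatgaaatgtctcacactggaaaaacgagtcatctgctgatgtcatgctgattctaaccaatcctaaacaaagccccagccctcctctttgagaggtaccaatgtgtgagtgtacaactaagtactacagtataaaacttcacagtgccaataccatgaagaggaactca
Amh: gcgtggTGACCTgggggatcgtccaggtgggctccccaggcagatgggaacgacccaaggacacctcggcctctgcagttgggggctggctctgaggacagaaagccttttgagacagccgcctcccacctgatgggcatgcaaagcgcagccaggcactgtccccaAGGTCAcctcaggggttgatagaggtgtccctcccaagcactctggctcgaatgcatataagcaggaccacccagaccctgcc
Acvr2a: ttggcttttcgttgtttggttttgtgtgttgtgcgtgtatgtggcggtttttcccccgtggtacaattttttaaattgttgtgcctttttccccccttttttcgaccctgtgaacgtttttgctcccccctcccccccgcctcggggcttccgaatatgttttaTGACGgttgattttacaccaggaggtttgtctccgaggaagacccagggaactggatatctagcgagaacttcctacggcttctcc
Fshr: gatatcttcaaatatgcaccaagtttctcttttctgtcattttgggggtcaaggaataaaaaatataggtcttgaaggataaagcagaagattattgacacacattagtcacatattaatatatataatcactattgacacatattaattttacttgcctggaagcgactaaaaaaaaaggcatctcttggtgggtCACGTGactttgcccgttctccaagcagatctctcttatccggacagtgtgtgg

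Of the 9 genes, 7 had an entry in the promoter table. Fst and Acvr1 had none. The full palindrome TGACGTCA, which contains TGACG, was searched as well and was in none of the 7 windows, and it was in 1.59% of the 33469 windows of the same length. TGACG was in the windows of Inha and Acvr2a (2 of 7), against 18.2% of all windows. AGGTCA was in those of Inha and Amh (2 of 7), against 14.1%, with 2 copies in Amh that point opposite ways. CACGTG was in that of Fshr alone among the 7, against 5.59%, and lay 54 to 49 bases before the start. The Inhba window held none of the motifs above. The letters GATA were searched too and are not marked by capitals. They were in 6 of the 7 windows, that of Inhba among them, against 55.9% of all windows. All these matches describe letters and not binding.

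Follistatin was the one gene of the axis with a probe set past 2-fold. As deposited, both of its probe sets were below VAD on every retinol array. The Fst probe set rc_AA858520_at had a ratio of 0.991 on the VAD array, 0.442 at 4 h, 0.370 at 8 h and 0.408 at 24 h. Its VAD value thus sat at the common baseline, and the 3 retinol arrays lay close together well below it. The changes were -1.16, -1.42 and -1.28, or 2.24-, 2.68- and 2.43-fold lower than VAD, each between 2.23 and 2.75 times the error of 1 probe set. By change it ranked 61st, 37th and 91st from the lowest of all 7006.

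The companion probe set rc_AA858520_g_at, from the same expressed sequence tag, moved the same way but less. Its ratios were 0.818 on the VAD array, 0.697 at 4 h, 0.593 at 8 h and 0.508 at 24 h. Each later array was below the one before it. The changes against VAD were -0.23, -0.46 and -0.69, and only the last exceeded the error of 1 probe set. At 4 h the 2 Fst probe sets stood 0.93 apart, a gap reached by 7.92% of the 770 pairs of this kind (one sequence, names ending _at and _g_at). At 24 h they stood 0.59 apart, a gap reached by 27.5%.

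Averaged over both probe sets, Fst was at -0.70 (4 h), -0.94 (8 h) and -0.98 (24 h), short of 2-fold each time. With spike-in scaling rc_AA858520_at was still below VAD, at -0.62, -0.92 and -0.66, and no longer past 2-fold, while rc_AA858520_g_at was at 0.32, 0.04 and -0.07. Both names begin with rc_, which marks a probe set designed on the reverse complement of a tag. The 2449 probe sets so named had medians of -0.19, -0.26 and -0.28 at the 3 times, and 1.67%, 3.8% and 4.7% of them were 2-fold lower. The part of probe design in the Fst values was not tested.

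In all, 1 of the 14 probe sets passed 2-fold at each time against VAD. The share over all probe sets was 3.8% (4 h), 6.57% (8 h) and 8.09% (24 h) in either direction, and 1.58%, 2.53% and 3.41% for lower values alone. A count of 1 in 14 is close to these shares and is not read as a result about the axis as a whole.

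**Figure D1:**
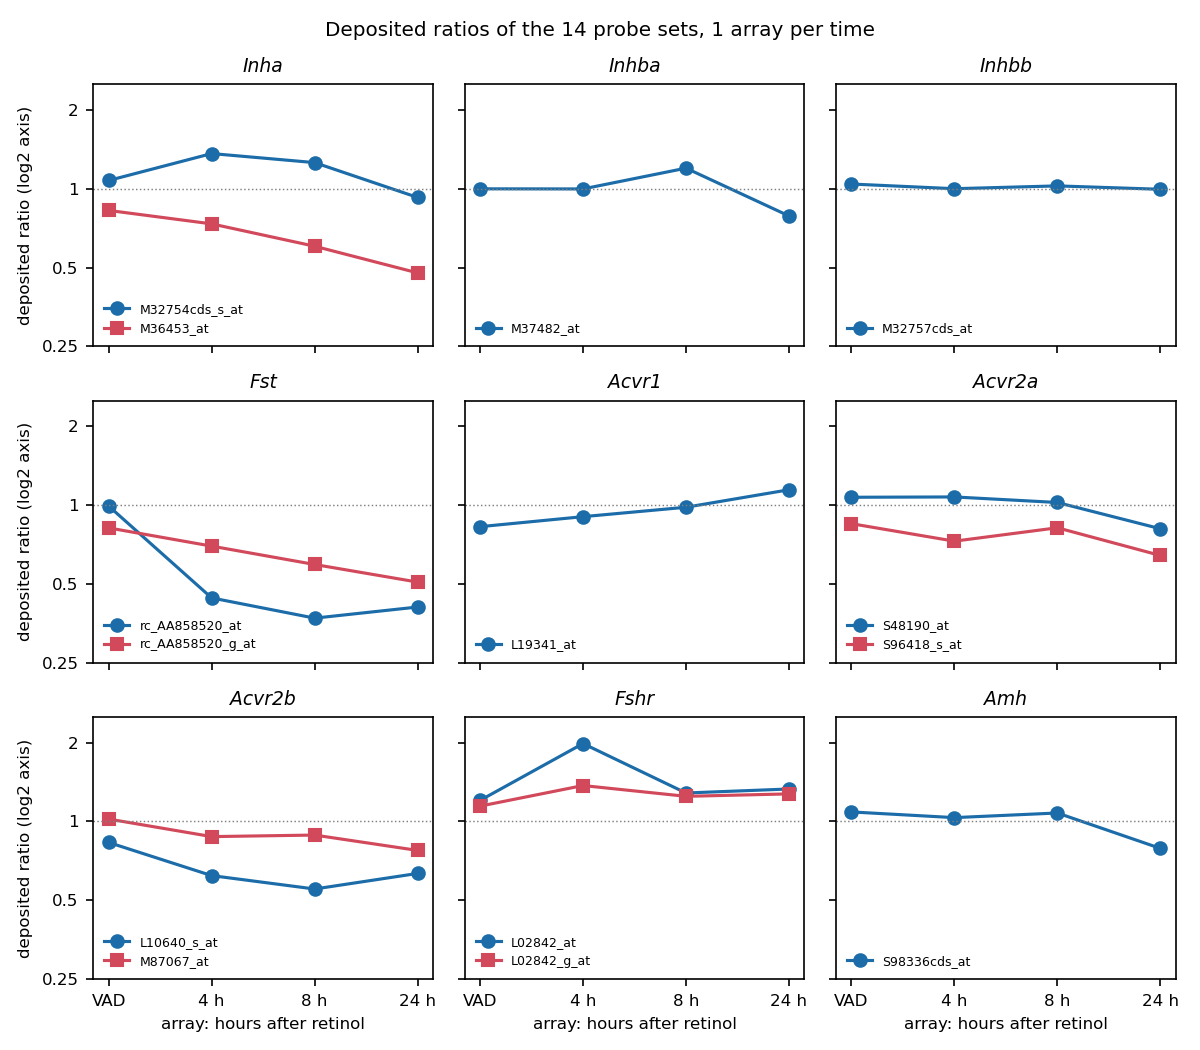
Deposited ratios (log2 axis) of the 14 probe sets on the VAD array and 4, 8 and 24 h after retinol, 1 panel per gene and 1 array per time. Points are single arrays, and the dotted line marks a ratio of 1. Fst lies below 0.5 on one of its probe sets at the 3 retinol times, Inhbb stays between 0.995 and 1.042, and the 2 lines for Inha diverge.

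Among the subunits, Inha was read differently by its 2 probe sets, which gave opposite signs against VAD at 4 h and 8 h and the same sign at 24 h. M32754cds_s_at, designed on coding sequence, had ratios of 1.075 on the VAD array, 1.362 at 4 h, 1.258 at 8 h and 0.926 at 24 h. M36453_at had 0.826, 0.734, 0.603 and 0.477 on the same arrays. On the coding-sequence probe set the 4 h and 8 h arrays were above VAD and the 24 h array below it, while on the other each array was below the one before.

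Against VAD, M32754cds_s_at was at 0.34, 0.23 and -0.22 at 4, 8 and 24 h. M36453_at was at -0.17, -0.45 and -0.79, of which the last, a 1.73-fold lower value, was 1.38 times the error. Gaps of 0.51, 0.68 and 0.58 between them were ordinary for this array: 36.6%, 31.3% and 44.9% of the 1083 pairs from different sequences disagreed by as much. Probe sets designed on coding sequence (494 with cds in the name) had medians of 0.06, 0.09 and 0.09 against VAD, so the kind of probe set differed between the 2 readings too. Its part was not tested. With spike-in scaling M36453_at would be at 0.38, 0.05 and -0.17 and M32754cds_s_at at 0.89, 0.73 and 0.41.

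The beta subunits differed in range. Inhbb, the beta B subunit, had ratios of 1.042 on the VAD array, 1.0 at 4 h, 1.025 at 8 h and 0.995 at 24 h. That is a range of 0.07 on the log2 scale over the 4 arrays, the narrowest of the 14. Inhba, the beta A subunit, had 0.999, 0.998, 1.198 and 0.787. The VAD and 4 h arrays were alike, the 8 h array was the highest and the 24 h array the lowest, with changes against VAD of 0.00, 0.26 and -0.34 that stayed within the error of 1 probe set. Its range over the 4 arrays, 0.61, was wider than that of Inha on M32754cds_s_at (0.56) and narrower than that on M36453_at (0.79).

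At 24 h Acvr1 lay above VAD and both type II receptors below it, all within the error of 1 probe set, and spike-in scaling put the type II receptors above VAD too. Acvr1, a type I receptor that also serves bone morphogenetic proteins and anti-Müllerian hormone, had ratios of 0.827 on the VAD array, 0.903 at 4 h, 0.981 at 8 h and 1.144 at 24 h. Each array was above the one before it, and the change at 24 h was 0.47, or 1.38-fold, within the error of 0.57. With spike-in scaling it would be 1.09, past 2-fold. The other type I receptors of activin on the array, Acvr1b and Acvr1c, were at -0.02 and -0.29 at 24 h.

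The type II receptors were lower at 24 h on all 4 of their probe sets, and by nearly the same amount. Acvr2a had ratios of 1.071 (VAD), 1.074 (4 h), 1.023 (8 h) and 0.812 (24 h) on S48190_at. On S96418_s_at it had 0.849, 0.728, 0.819 and 0.642. Acvr2a was thus lowest at 24 h on both, and differed little between VAD and 8 h.

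Acvr2b had ratios of 0.831 (VAD), 0.621 (4 h), 0.552 (8 h) and 0.633 (24 h) on L10640_s_at. On M87067_at it had 1.021, 0.875, 0.887 and 0.775. It was below VAD at 4 h on both probe sets, at -0.42 and -0.22.

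At 24 h against VAD the Acvr2a probe sets were both at -0.40 and those of Acvr2b at -0.39 and -0.40. The gaps within the pairs were under 0.01, narrower than in 99.4% and 99% of pairs from different sequences. They were not as narrow at each time. Those of Acvr2a were 0.23 at 4 h and 0.01 at 8 h, and those of Acvr2b 0.20 and 0.39. Gaps as wide as those of Acvr2b were found in 70.8% and 55.4% of such pairs. Each change at 24 h was nonetheless smaller than the error of 1 probe set. Between 26.6% and 27.5% of all probe sets were lower still. The largest change of a type II receptor was -0.59 for Acvr2b on L10640_s_at at 8 h, 1.14 times the error. Spike-in scaling turns the sign of all 4 at 24 h, to 0.22 or 0.23.

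**Figure D2:**
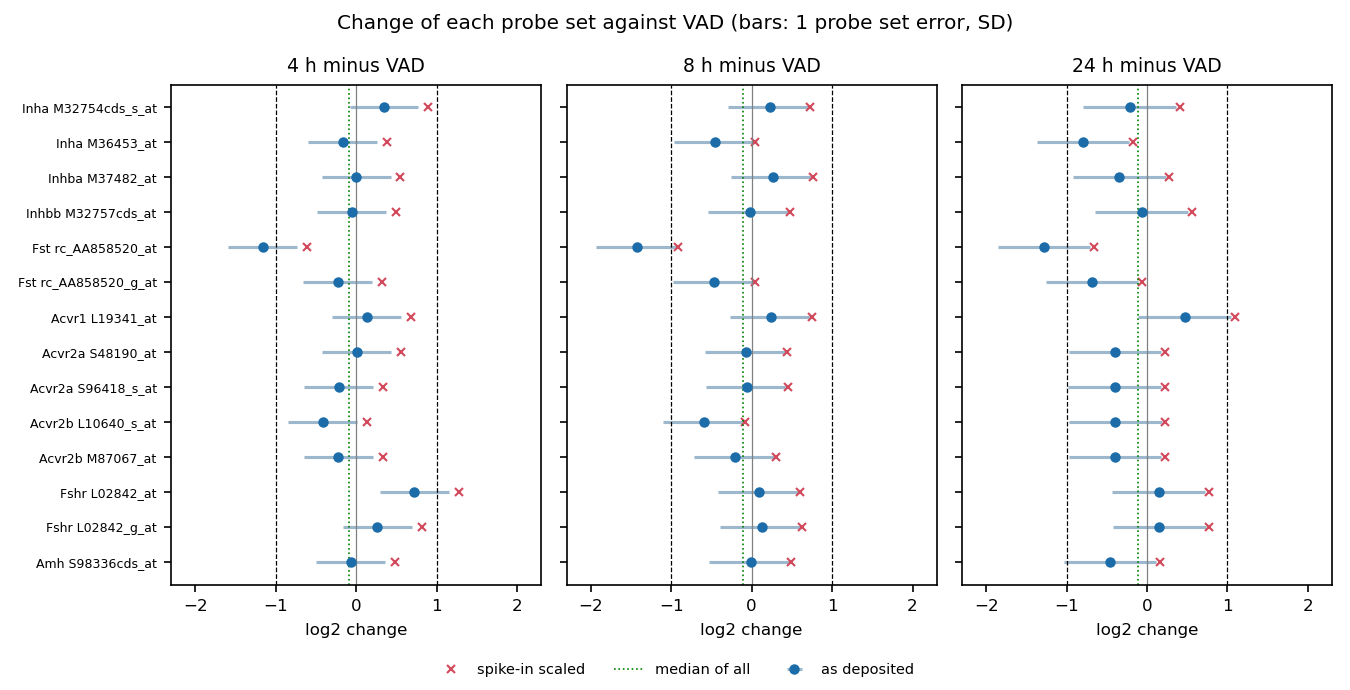
Log2 change of each of the 14 probe sets at 4, 8 and 24 h minus VAD. Blue points are values as deposited with bars of 1 probe set error (SD), red crosses the same values after spike-in scaling, dashed lines 2-fold and the dotted line the median of all probe sets. Fst rc_AA858520_at is the only blue point past 2-fold, and no cross of Fst is.

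The FSH receptor was highest at 4 h. Fshr had ratios of 1.203 on the VAD array, 1.983 at 4 h, 1.284 at 8 h and 1.330 at 24 h on L02842_at. On L02842_g_at, from the same sequence, it had 1.144, 1.371, 1.247 and 1.274. Both probe sets gave the same order of arrays, with VAD lowest, then 8 h, then 24 h, then 4 h.

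The change at 4 h against VAD was 0.72 on L02842_at, or 1.65-fold and 1.69 times the error, and 0.26 on L02842_g_at. By change L02842_at ranked 361st from the highest of 7006. At 8 h and 24 h the 2 probe sets were within 0.03 of each other, at 0.09 and 0.12, then 0.14 and 0.16. The difference of 8 h against 4 h was -0.63 on L02842_at, 1.90 times the error of that step, and -0.14 on L02842_g_at. With spike-in scaling L02842_at would be at 1.27 at 4 h, past 2-fold.

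Markers of other cells also stood apart on the 4 h array. The 10 measured of 12 listed spermatid markers stood at 0.72 (median, 4 h) and -0.37 (8 h) against VAD, and the 9 measured of 11 spermatocyte markers at 0.61 and -0.17. The 16 measured of 22 Sertoli markers, other than the genes described here, were at 0.14 and 0.28. The part of these cells in the Fshr value at 4 h was not tested.

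Amh, the Sertoli hormone of the fetal and immature testis, was level until 8 h and lower at 24 h. Its ratios were 1.087 on the VAD array, 1.034 at 4 h, 1.077 at 8 h and 0.789 at 24 h. The first 3 arrays lay within 0.07 of each other against VAD, at -0.07 and -0.01, and the 24 h array was at -0.46, or 1.38-fold lower and within the error of that comparison. With spike-in scaling the 24 h value turns to 0.16.

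Several genes of the axis were lower together at 24 h in comparison with 8 h. This step does not involve the VAD array, and its error is smaller, at 0.32. Inhba was at -0.61 (1.52-fold lower), Amh at -0.45 (1.37-fold), Inha at -0.44 and -0.34 and Acvr2a at -0.35 and -0.33. These 6 probe sets of 4 genes were each lower by more than the error of 1 probe set, and 0 of the 14 were higher by as much.

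Over all 7006 probe sets, 11.1% were lower and 10.8% higher by that measure. The 6 are not independent readings, as both probe sets of Inha and both of Acvr2a are among them. That threshold was chosen after the values had been seen, so the count is a description and not read as a result about the axis. At 1.5-fold 1 of the 14 (Inhba) was lower, against 3.83% of all probe sets. At 2-fold none of the 14 passed, against 1.76% of all probe sets. The remaining probe sets ran from -0.22 for Fst rc_AA858520_g_at to 0.22 for Acvr1, with Inhbb at -0.04 and Fshr at 0.05 and 0.03.

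The median of the 14 was -0.21 in this step, against 0.00 for all probe sets. Centring each array on its median left the same 6 probe sets past the error. Scaling on the spike-ins, which were lower at 24 h than at 8 h by 0.12, left 3 (Inha M32754cds_s_at, Inhba and Amh) against 6.68% of all probe sets, and placed Acvr1 past it on the higher side.

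In the same step the Sertoli markers had a median of 0.02, with 6 of 16 below 0, from Gdnf at -0.82 to Kitlg at 0.61. The Leydig markers had a median of -0.50 (9 of 14 measured), with 7 of 9 below 0. They ran from the side-chain cleavage gene Cyp11a1 at -1.73 to Nr5a1 at 0.38. Spermatids were at -0.11, spermatocytes at -0.05, spermatogonia at 0.07, peritubular myoid cells at 0.08, leukocytes at 0.16 and endothelium at 0.01. The part of Leydig cells in the lower values of the axis was not tested.

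**Figure D3:**
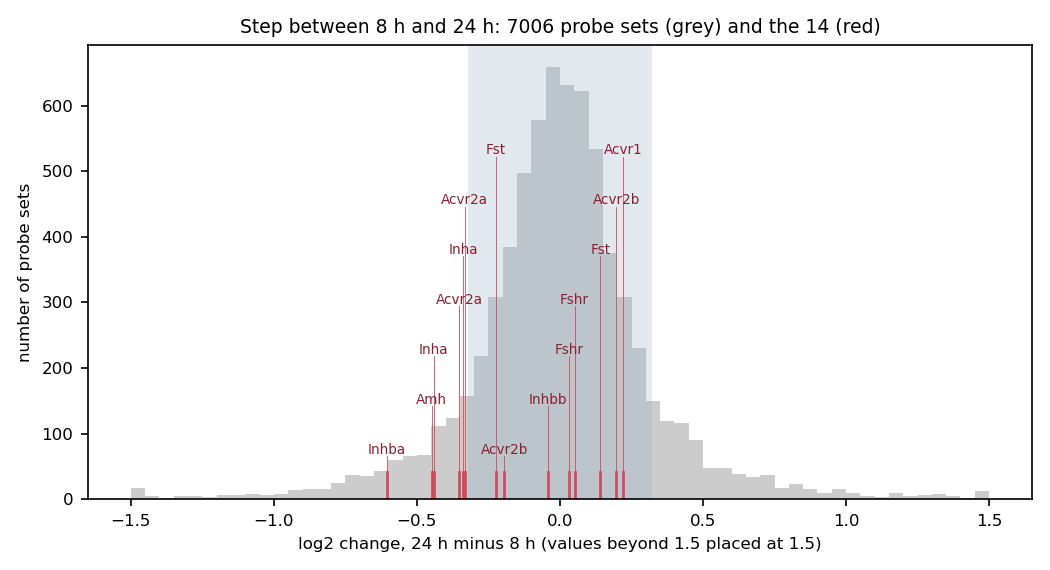
Number of probe sets (grey, 7006) by log2 change, 24 h minus 8 h, with the 14 probe sets of the axis as red marks carrying their gene names. The shaded band is 1 probe set error (0.32) on either side of 0. The marks of Inhba, Amh, Inha and Acvr2a lie left of the band and no mark lies right of it.

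Between 8 h and 4 h, 0 of the 14 passed 2-fold, against 1.93% of all probe sets. The only difference larger than the error was that of Fshr on L02842_at, given above. Over all 7006 probe sets 24.3% differed by more than the error in this step. Inhba was at 0.26 and Inha M36453_at at -0.28, and both Fst probe sets were lower, at -0.26 and -0.23. The median of the 14 was -0.09, beside -0.03 for all probe sets.

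Taken against VAD, the medians of the 14 were -0.07, -0.04 and -0.40 in order of time, beside -0.09, -0.11 and -0.11 for all probe sets. At 24 h 11 of the 14 were below VAD, and the 3 above it were Fshr (both probe sets) and Acvr1. Over all probe sets 58.5% were below VAD at that time. Under spike-in scaling 1, 2 and 3 of the 14 would lie below VAD at 4, 8 and 24 h.

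The VAD column itself was not uniform for these genes. Of the 14 probe sets 7 had a VAD ratio within 10% of 1. The others were Fshr (both), and, below 1, Acvr1 and 1 probe set each of Inha, Fst, Acvr2a and Acvr2b, down to 0.818. Read against a ratio of 1 in place of the VAD column, Inha M36453_at would be 2-fold lower at 24 h (-1.07) beside Fst rc_AA858520_at (-1.29), and Acvr1 would be at 0.19.

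Over the 3 changes against VAD, the genes with the pattern nearest to that of Fst rc_AA858520_at were the Krüppel-like transcription factor gene Klf13, the tenascin gene Tnr and Sfxn4, a sideroflexin gene, each read by 1 probe set. Klf13 was at -1.07, -1.47 and -1.34, at a Euclidean distance of 0.13. Tnr was at -1.02, -1.41 and -1.14 and Sfxn4 at -1.11, -1.34 and -1.46, each at a distance of 0.21. Likeness over 3 values that share 1 VAD array is a description.

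A few other genes of the TGF-beta family lay further from VAD than the axis did. Of 27 listed ligands and binding proteins outside the 9 genes, 19 were measured, with medians of -0.02, -0.03 and -0.05 at 4, 8 and 24 h. At 4 h 0 were 2-fold higher and 2 lower, at 8 h 1 and 3, and at 24 h 1 and 1. Over all 4736 genes 2.66%, 4.71% and 5.91% passed 2-fold in either direction.

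The bone morphogenetic protein genes Bmp3 and Bmp4, ligands of the same family, were below VAD at each time. Bmp3 was at -1.67, -1.58 and -1.36 and Bmp4 at -1.66, -1.70 and -0.94 over the 3 times. The 2 probe sets of Bmp3 disagreed, at -2.18 and -1.16 at 4 h and at -2.52 and -0.20 at 24 h, and Bmp4 had 1. Noggin (Nog), which binds such ligands as follistatin binds activin, was at -0.83, -1.5 and -0.77, from 2 probe sets at -2.33 and -0.67 at 8 h and at -1.67 and 0.12 at 24 h. On the higher side were Gdnf, the Sertoli factor for spermatogonial stem cells, with 0.97, 1.02 and 0.19, and Bmp6 with 0.58, 0.84 and 1.07. The 2 probe sets of Bmp6 were at 0.48 and 1.67 at 24 h.

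Other receptors and Smads, the proteins that carry the receptor signal to the nucleus, held 1 gene past 2-fold. It was Smad9, of the bone morphogenetic protein branch, with ratios of 1.23 on the VAD array, 2.26 at 4 h, 2.58 at 8 h and 3.60 at 24 h. Its changes were 0.88, 1.07 and 1.56, past 2-fold at 8 h and 24 h. Over all genes the share past 2-fold was 2.66% (4 h), 4.71% (8 h) and 5.91% (24 h). The 6 measured of 13 Smads and regulators had medians of 0.24, 0.42 and 0.28, and the 2 Smads of the activin branch lay on opposite sides of VAD. Smad2 was at -0.19, -0.22 and -0.29, and Smad3 at 0.56, 0.55 and 0.34. None of the 7 measured of 12 other receptors passed 2-fold. Among these Tgfbr3, betaglycan, the co-receptor through which inhibin blocks activin, was at 0.30, 0.43 and 0.43. Its 2 probe sets disagreed, at -0.03 and 0.89 at 24 h. Bmpr1a was at -0.76, -0.09 and -0.87.

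Several genes of the gonadotropin system encode pituitary hormones. All 9 listed were measured, with medians of 0.12, 0.05 and 0.05. Tshb, the thyrotropin beta subunit of the pituitary, was past 2-fold at each time (1.12, 1.06 and 1.26). That is about as far above VAD as Fst rc_AA858520_at was below it. Fshb, the FSH beta subunit, was at 0.28, 0.61 and 0.05, and Gnrhr, the receptor of the releasing hormone, at 0.12, 0.41 and 1.05 as the mean of 3 probe sets, all of them above VAD at 24 h. Gnrh1 was at -0.29 at 24 h. Of the 9, 1 (Tshb) passed 2-fold at 4 h and at 8 h, and 2 (Tshb and Gnrhr) at 24 h. The share over all genes was 2.66%, 4.71% and 5.91%.

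Downstream of the FSH receptor, 23 of 25 listed genes of the cyclic AMP pathway were measured, and their medians were 0.01, -0.05 and -0.06. None passed 2-fold at 4 h or 8 h, and 1 did at 24 h. Of all genes 2.66%, 4.71% and 5.91% passed it at the 3 times. At 24 h Adcy4, an adenylate cyclase, was at -1.72, after -0.62 and -0.97. Akap12, an anchor of protein kinase A, was the most positive at 0.69, from 2 probe sets at -0.003 and 1.38.

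Genes known to respond to FSH in rat Sertoli cells (19 of 22 measured, 4 of them also in the cyclic AMP list and 3 in the Sertoli markers) had medians of 0.09, 0.06 and 0.00. At 4 h none was past 2-fold, at 8 h Gdnf was, and at 24 h Kitlg, the Kit ligand gene, was, at 1.09 from probe sets at 0.72 and 1.46. The share over all genes was 2.66%, 4.71% and 5.91%, and the count is not read as a result about this list. With spike-in scaling the list had 3, 6 and 3 genes past 2-fold at the 3 times. Odc1, which starts polyamine synthesis, was the most negative at 24 h, at -0.90. Spike-in scaling turns every negative median of these lists at the 3 times positive, and the signs of list medians hold only for values as deposited.

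**Figure D4:**
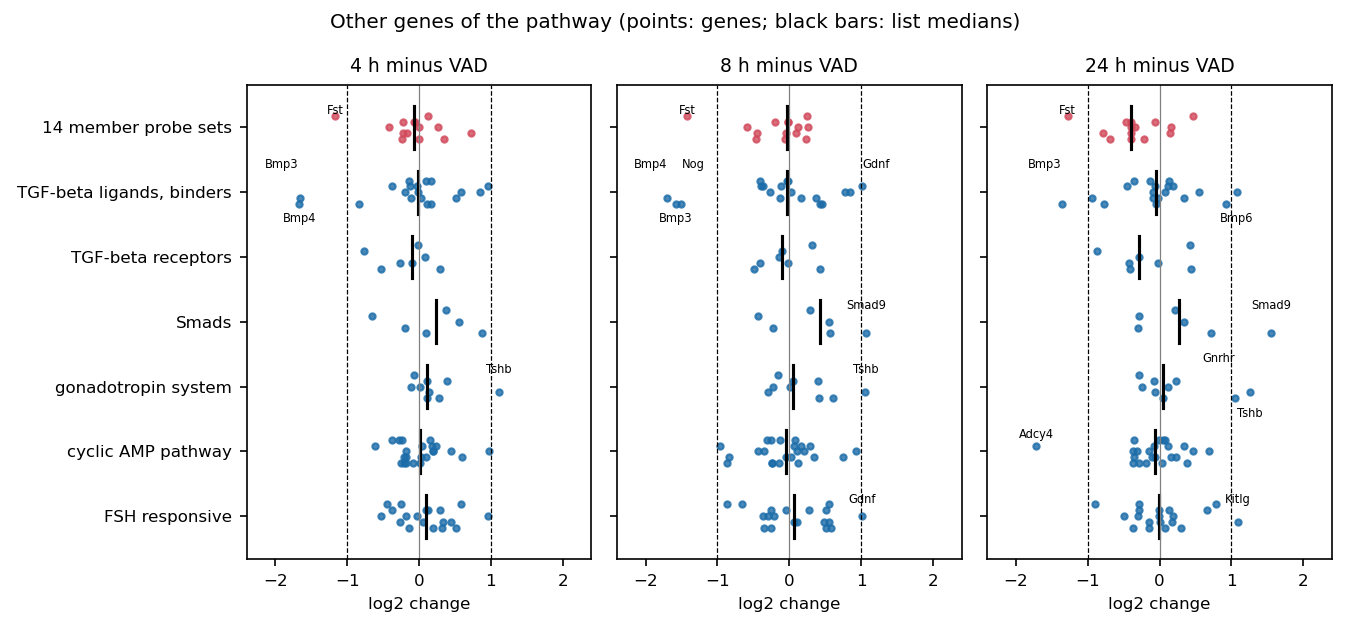
Log2 change at 4, 8 and 24 h minus VAD for the 14 probe sets of the axis (red) and for the measured genes of 6 pathway lists (blue, means over probe sets). Black bars are medians and dashed lines 2-fold, and names mark points past 2-fold. Apart from the 14 probe sets at 24 h (-0.40), the medians lie between -0.29 and 0.42.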

How the data were processed

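Total RNA of whole testis, 10 micrograms per sample, was labelled with biotin and read on an Affymetrix array, per the labels' protocols. The values the authors deposited are linear ratios, 1 per probe set and sample. GCOS and MAS5 are named in the submitters' processing notes; their versions, the reference of the ratios, the scaling between arrays and any pooling of chips stay unstated in these sources. Precision is limited by 1 array per group, and depth does not apply.

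The table held 8799 probe sets: 59 Affymetrix controls, 7006 with 1 gene symbol, 308 with several and 1426 not listed in the platform annotation. Of the 7006, 6985 were updated to current symbols by Entrez ID through RefSeq (GRCr8). No probe set with several symbols named a gene of the axis. Ratios were put on the log2 scale with no floor or pseudocount, and differences were taken for 5 comparisons (Python 3.11.15, pandas 2.3.3). Probe sets of the axis were kept separate; listed genes are means over their probe sets. The probe set error and the counting were tested on simulated data. Named genes were all 9 of the axis, listed genes past 2-fold at any time against VAD or at either extreme at 24 h, and the 3 genes nearest in pattern to a probe set past 2-fold; any other gene named was chosen after its values were seen. Genes and lists were chosen with earlier results of these data known. Alternatives were median centring, spike-in scaling, a baseline of 1, a 1.5-fold threshold and means over probe sets.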

Additional observations from a re-analysis of the deposited data

How the results depend on the processing

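Against VAD, 1 of the 14 probe sets passed 2-fold at 4, 8 and 24 h, and 0 did in the other 2 comparisons. Median centring kept these counts. With spike-in scaling the count was 0 at 8 h and 1 at 4 h (Fshr, higher) and 24 h (Acvr1, higher), so Fst was no longer counted. Against a ratio of 1 it was 2 at 24 h. At 1.5-fold the counts were 2, 2 and 3 at 4, 8 and 24 h, 1 between 8 h and 4 h and 1 between 24 h and 8 h. At the error of 1 probe set, a threshold chosen after seeing the data, they were 2, 2, 3, 1 and 6. Over all probe sets, higher and lower counts against VAD were 155 and 111, 283 and 177, and 328 and 239. Median centring gave 198 and 78, 363 and 117, and 422 and 165, and spike-in scaling 843 and 20, 879 and 30, and 1267 and 31. In the later steps spike-in scaling gave 49 and 88 (8 h against 4 h) and 99 and 42 (24 h against 8 h), where the values as deposited gave 62 and 73, then 63 and 60. Totals past 2-fold were 266, 460, 567, 135 and 123 probe sets over the 5 comparisons, 1132, 1711, 1903, 600 and 532 at 1.5-fold, 2091, 2118, 1961, 1703 and 1532 at the error, and 126, 223, 280, 78 and 55 as genes. By more than the error of 1 probe set, spike-in scaling moved 28 of 70 changes of the axis, means over probe sets 2 of 50, centring 0 of 70 and the baseline of 1 (comparisons with VAD alone) 0 of 42. Spike-in scaling and centring shift all probe sets of a comparison by the same amount, so their counts follow from that amount and not from the genes. The 28 are all values at 4 h and 24 h against VAD. At 8 h the shift of 0.50 was just under the error of 0.52, yet the probe sets below VAD went from 9 to 2. No paired analysis was possible because each group has 1 sample, and for the same reason no replicate could be left out. No floor was applied, as ratios hold no level.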
